A study of Mus musculus with 18 samples.

Results

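The genes described here are the alpha-tubulin genes Tuba1a, Tuba1b and Tuba1c, the beta-tubulin genes Tubb2a, Tubb2b, Tubb3, Tubb4b, Tubb5 and Tubb6, and the gamma-tubulin gene Tubg1, picked by symbol alone. Of these 10 symbols, 9 were found in the deposited table of loci, and they lay in 8 of the 52179 loci that carried a symbol. Tubb3 was not analysed here. A locus is a set of transcripts to which the authors' assembly gave 1 identifier. Tuba1a and Tuba1b were joined in 1 locus, and Tubg1 was joined with its neighbour Tubg2, so the values of these pairs cannot be split. All 8 loci averaged 10 normalized counts or more across the 18 libraries, the minimum for testing, which 15579 loci passed in all.

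Microtubules are built from dimers of alpha- and beta-tubulin, and cells mix several isotypes of each, encoded by separate genes. Tubb5 is the broadly expressed beta isotype, Tuba1a and the class II genes Tubb2a and Tubb2b are prominent in developing neurons, Tubb4b is widespread and abundant in cilia, and gamma-tubulin caps and nucleates the microtubule in the gamma-tubulin ring complex. Tubulin mRNAs are translated in the cytoplasm, where an excess of free dimers shortens the life of the mRNAs through Ttc5, a protein that binds the start of the nascent tubulin chain.

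Neuro2A (N2A) cells, a mouse neuroblastoma line of genotype WT, were studied in 6 groups of 3 samples. Cells had been transfected with biotin-tagged *miR-92b* mimic (*miR-92b*), transfected with a biotin-tagged scrambled mimic (Scr) or left as control, and nuclear or whole cell RNA was sequenced from each. Mimics were used at 25 nM and RNA was collected 48 h later on streptavidin beads that hold biotin. Libraries were made from poly(A) RNA caught on oligo-dT beads, and a whole cell sample also contains the nuclei. Whether control samples passed over the streptavidin beads is not given in the sources used here. All samples are of 1 cell line, and the n of 3 counts samples that the labels do not tie to separate cultures, so the p-values measure the spread between these samples, which may be technical.

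Depth on named loci was 3752991 to 22920038 reads, of which 1643 to 50367 per library fell on the 8 tubulin loci. Of 13 neuroblastoma markers, 12 had a median normalized count of at least 10. Of 7 markers of glia, immune cells, fibroblasts and endothelium, 3 reached that median, and the summed count of the 7 stayed between 44.7 and 189. The summed normalized count of 5 cytoplasmic mRNAs (Actb, Eef2, Gapdh, Rplp0 and Tpt1) was 3898 to 6618 in 7 of the nuclear samples but 9994 and 11663 in nuclear Scr samples 2 and 3. For whole cell samples this sum was 25327 to 55786, except in *miR-92b* sample 3, where it was 98333. The last sample also had the lowest summed count of nuclear RNAs (Malat1, Neat1, Kcnq1ot1 and Meg3) of the whole cell samples. This sum was 32720, against 55691 to 85155 in the other whole cell samples. These 3 samples stood apart from their groups, and most results that rest on them are given with and without them. In such bulk samples, fewer cells and less RNA per cell cannot be told apart, and a normalized count is a share of the RNA sequenced, not an amount per nucleus or per cell.

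The start of each reading frame is shown because it encodes the nascent peptide through which alpha- and beta-tubulin mRNA levels are regulated, with gamma-tubulin for contrast, and because it shows how alike the beta genes are. The capitals mark the start codon and the codons for the short peptide. The sequences were read from transcripts of GENCODE release M21 on GRCm38, the build of the files.
Tubb5: ATGAGGGAAATCgtgcac
Tubb4b: ATGAGGGAGATCgtgcac
Tubb2a: ATGCGCGAGATCgtgcac
Tubb2b: ATGCGAGAGATCgtgcac
Tuba1a: ATGCGTGAGTGCatctcc
Tubg1: ATGCCGAGAGAAatcatc
They lie at chr17:35838036-35838053 (Tubb5), chr2:25224573-25224590 (Tubb4b), chr13:34077912-34077929 (Tubb2a) and chr13:34130216-34130233 (Tubb2b), all on the minus strand, and at chr11:101120194-101120211 on the plus strand (Tubg1). That of Tuba1a, on the minus strand, spans an intron within chr15:98951677-98953453. Tuba1b and Tuba1c carry the same letters as Tuba1a over this stretch.

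The *miR-92b* seed is shown because the mimic was the bait of the pulldown. In mature miR-92b-3p from RefSeq, on the minus strand at chr3:89227126-89227147, the capitals mark the seed, bases 2 to 8.
miR-92b-3p: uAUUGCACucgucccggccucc
None of the main transcripts of the 9 genes held GTGCAAT, the match to the seed, or TGCAATA, the match to bases 2 to 7 followed by A, in the 3′ UTR or in the reading frame. These motifs were searched on the transcript strand only, and they overlap in 6 letters. Of 20987 genes with a 3′ UTR in the annotation, 12.5% held either motif there and 6.47% held GTGCAAT. Tubg2, which is no tubulin of the chosen set but shares the locus of Tubg1, held 1 match, 92 bases after the stop codon on the plus strand at chr11:101161682-101161706, with the match in capitals.
Tubg2: ttttgtgttcatGTGCAATttagga

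Tubulin transcripts resemble each other closely enough for short reads to fit more than 1 gene. Of all stretches of 50 bases in the transcript, 83.1% in Tuba1b, 75.5% in Tuba1a and 61.0% in Tuba1c also occurred in another gene or pseudogene. The share was 55.5% for Tubb4b (mostly its pseudogene Tubb4b-ps1, 43.6%), 49.6% for Tubb2a (45.6% in Tubb2b) and 39.3% for Tubb2b. Tubg1 shared 14.1%, almost wholly with Tubg2. Tubb5 shared 0.115% and Tubb6 shared none, so the values of these 2 beta genes hardly depend on how reads were divided among copies. How the authors' pipeline placed such reads is not given in the sources used here, and values of the alpha loci, Tubb2a, Tubb2b and Tubb4b are uncertain to that extent.

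All 8 tubulin loci were lower in nuclear than in whole cell samples, which compares the compartments over all treatments. The difference in log2(normalized count + 1), nuclear minus whole cell, ranged from -2.91 for Tuba1c to -0.70 for Tubb4b, with a median of -1.73 over the 8 loci, against a median of 0.14 over all tested loci. All 8 passed the threshold of 0.05 in limma's moderated test with Benjamini-Hochberg adjustment, with adjusted p-values from 5.3e-10 to 0.0179. Of all tested loci, 15.8% were called lower in nuclear samples and 31.0% were called in either direction. Without the 3 samples that stood apart, 8 of 8 were again called lower. For the values by sample, the 8 loci are taken in the order alpha, beta and gamma.

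**Figure D1:**
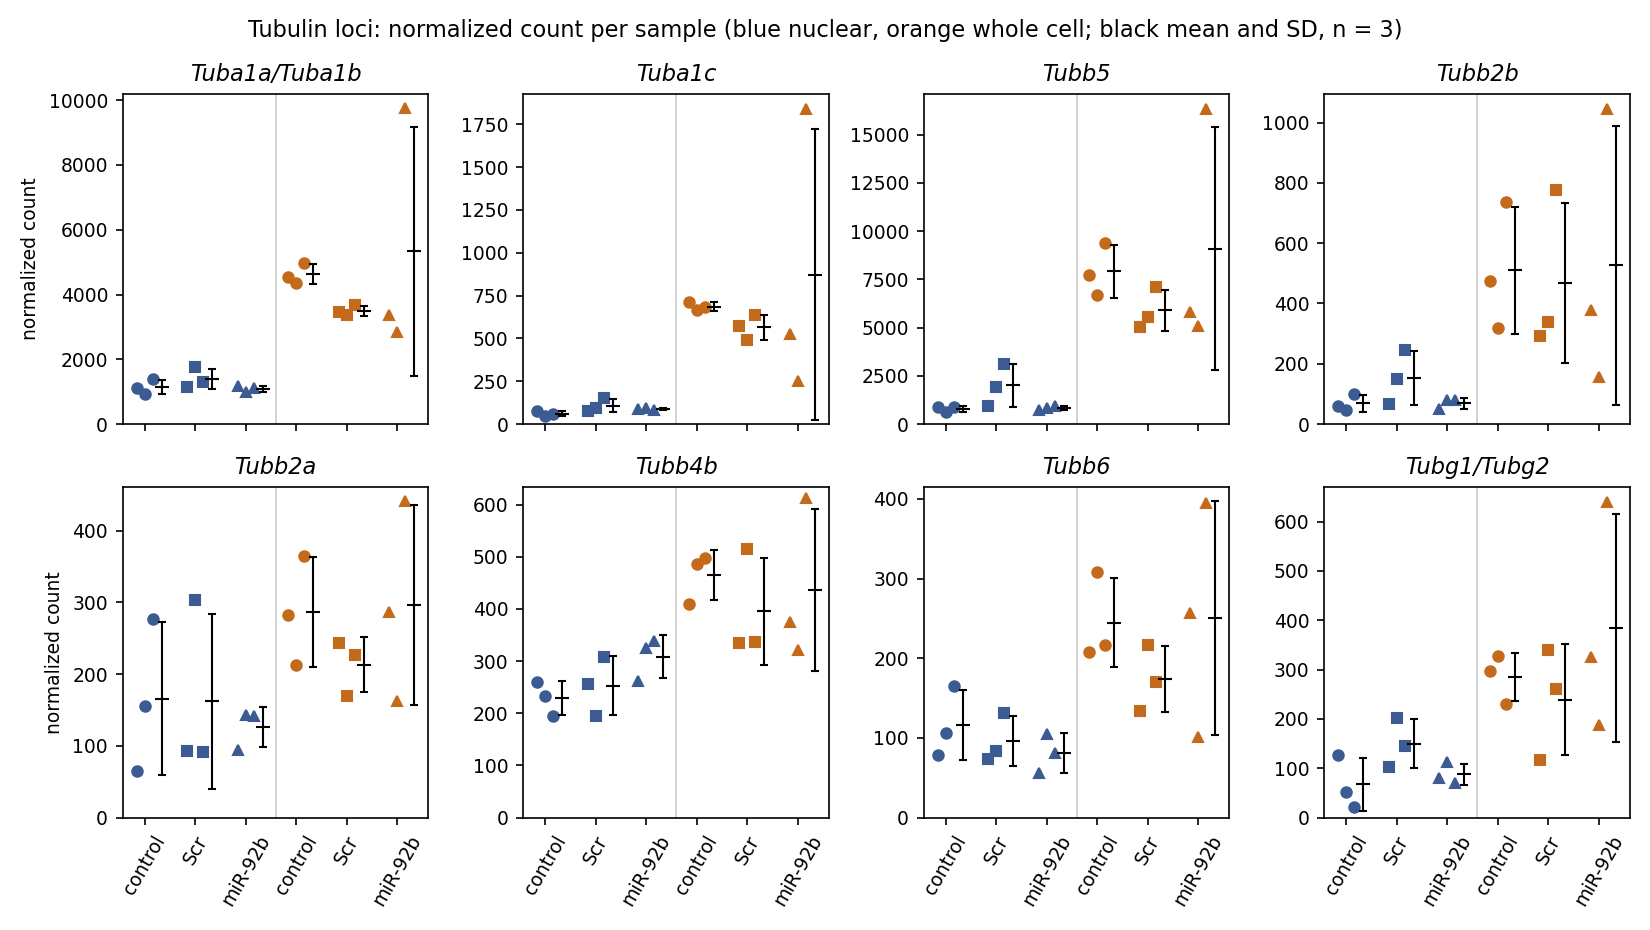
Normalized count (linear axes from 0, a different scale per panel) of the 8 tubulin loci in each of the 18 samples, with 3 samples per group as points (blue nuclear, orange whole cell; in the order control, Scr, miR-92b) and the mean and SD in black. Nuclear points lie below whole cell points without overlap for Tuba1a/Tuba1b, Tuba1c and Tubb5, and whole cell miR-92b sample 3 is the highest point of every panel.

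The joined alpha locus Tuba1a/Tuba1b (chr15:98929642-98953551) had normalized counts of 1125, 940 and 1384 in nuclear control samples, 1132, 1749 and 1314 in nuclear Scr samples and 1175, 990 and 1125 in nuclear *miR-92b* samples. Whole cell samples had 4537, 4367 and 4964 with control, 3460, 3359 and 3676 with Scr and 3382, 2859 and 9764 with *miR-92b*. Every nuclear sample lay below every whole cell sample, and whole cell *miR-92b* sample 3 lay far above the rest. The locus was 3.50 times lower in nuclear samples (95% interval 2.76 to 4.44, n = 9 and 9, adjusted p = 1.54e-08).

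Tuba1c (chr15:99029891-99038105), which encodes an alpha chain close to that of Tuba1b, had the largest difference of the 8 loci over all treatments. Its normalized counts were 75.1, 49.7 and 60.1 in nuclear control samples, 79.2, 95.5 and 151 in nuclear Scr samples and 86.0, 92.3 and 83.6 in nuclear *miR-92b* samples. They were 711, 663 and 684 in whole cell control samples, 572, 489 and 636 in whole cell Scr samples and 526, 253 and 1839 in whole cell *miR-92b* samples. The compartments did not overlap, and the lowest and the highest whole cell value were both in the *miR-92b* group. Tuba1c was 7.49 times lower in nuclear samples (95% interval 5.17 to 10.9, adjusted p = 9.15e-09). Without the 3 samples that stood apart, Tubb5 had the larger log2 difference, -2.87 against -2.78 for Tuba1c.

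Tubb5 (chr17:35833921-35838306), the tubulin locus with most reads, had normalized counts of 911, 627 and 876 in nuclear control samples, 955, 1925 and 3139 in nuclear Scr samples and 751, 822 and 949 in nuclear *miR-92b* samples. In whole cell samples the values were 7711, 6682 and 9400 with control, 5051, 5537 and 7110 with Scr and 5827, 5092 and 16347 with *miR-92b*. Nuclear Scr samples 2 and 3 exceeded the other 7 nuclear samples, yet no nuclear sample reached the lowest whole cell sample. Tubb5 was 6.70 times lower in nuclear samples (95% interval 5.02 to 8.95, adjusted p = 5.3e-10).

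Tubb2b (chr13:34127008-34130354) had 45.7 to 245 normalized counts in nuclear samples, with a median of 78.4, and 157 to 1046 in whole cell samples, with a median of 378. Its highest nuclear values, 150 and 245, were in Scr samples 2 and 3, and 245 exceeded the lowest whole cell value, that of *miR-92b* sample 2. Tubb2b was 5.10 times lower in nuclear samples (95% interval 3.21 to 8.09, adjusted p = 6.17e-06). Its class II partner Tubb2a, in a listed region that holds 2 loci (chr13:34037641-34078008), differed less. It had 65.0 to 303 normalized counts in nuclear samples (median 141) and 163 to 441 in whole cell samples (median 243), with wide overlap, and was 1.88 times lower in nuclear samples (95% interval 1.25 to 2.83, adjusted p = 0.0179).

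Tubb4b, whose listed region chr2:25218745-25224702 holds 2 loci, had the smallest difference over all treatments. Its normalized counts were 260, 233 and 195 in nuclear control samples, 256, 196 and 308 in nuclear Scr samples and 262, 325 and 338 in nuclear *miR-92b* samples. Whole cell samples had 410, 486 and 498 with control, 335, 514 and 337 with Scr and 374, 321 and 613 with *miR-92b*. The nuclear *miR-92b* samples overlapped the whole cell samples, while the control and Scr groups did not overlap between compartments. Tubb4b was 1.63 times lower in nuclear samples (95% interval 1.30 to 2.04, adjusted p = 0.0016). Within control samples the log2 difference of Tubb2a was smaller, -0.98 against -1.02 for Tubb4b. Within Scr samples those of Tubg1/Tubg2 (-0.59) and Tubb2a (-0.62) were smaller than that of Tubb4b (-0.64).

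Tubb6 (chr18:67390717-67402755) had 56.0 to 165 normalized counts in nuclear samples and 101 to 395 in whole cell samples, and was 2.21 times lower in nuclear samples (log2 difference -1.15, 95% interval -1.71 to -0.59, adjusted p = 0.00231). The joined gamma locus Tubg1/Tubg2 lies in a listed region of 11 loci, chr11:101119938-101226463, and had 22.1 to 203 normalized counts in nuclear samples and 117 to 639 in whole cell samples. It was 3.14 times lower in nuclear samples (95% interval 2.01 to 4.89, adjusted p = 0.000269). Both loci overlapped between compartments. The lowest gamma value, 22.1 in nuclear control sample 3, rested on 14 reads.

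Every nuclear sample lay below every whole cell sample for 3 of the 8 loci, namely Tuba1a/Tuba1b, Tuba1c and Tubb5, and the same held for 4.4% of all tested loci. The differences thus ran from below 2 times for Tubb4b and Tubb2a to above 6 times for Tubb5 and Tuba1c, and the 95% intervals of Tubb4b and Tubb5 did not overlap. Differences between loci were not tested.

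Within treatments the same direction was seen for all 8 loci, with fewer calls. In control samples 6 of 8 loci were called lower in nuclear samples, against 6.91% of all tested loci (9.85% called either way). Nuclear and whole cell control samples did not overlap for the tubulin loci other than Tubb2a, which held for nuclear below whole cell samples in 19.4% of all tested loci. Tubb2a (-0.98, adjusted p = 0.244) and Tubb6 (-1.11, adjusted p = 0.148) missed the threshold in limma, though Tubb6 passed it with the compared groups alone (adjusted p = 0.0261). Tubb5 was 9.88 times lower in nuclear control samples (95% interval 5.99 to 16.3, adjusted p = 7.93e-07) and Tuba1c 11.1 times (95% interval 5.85 to 21.1, adjusted p = 1.11e-05). The call of Tubb4b in control samples (log2 difference -1.02, adjusted p = 0.0179) was lost without nuclear control sample 2 (adjusted p = 0.0531) or 3 (0.0877) and without whole cell control sample 2 (0.0711) or 3 (0.0749), and that of Tubg1/Tubg2 (-2.39) without nuclear control sample 3 (-1.77, adjusted p = 0.0507). Without nuclear control sample 1, Tubg1/Tubg2 had a difference of -3.01 and stayed called.

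In *miR-92b* samples 6 of 8 loci were called lower in nuclear samples, against 6.63% of all tested loci (13.3% called either way). The compartments overlapped for Tubb4b and Tubb6 and for no other tubulin locus, while 16.5% of all tested loci had every nuclear sample below every whole cell sample. Here Tubb2a (-1.14, adjusted p = 0.133) and Tubb4b (-0.45, adjusted p = 0.291) missed the threshold in limma. Tubb5 was 9.38 times lower (95% interval 5.68 to 15.5, adjusted p = 2.53e-06). Without whole cell *miR-92b* sample 3, in which all 8 loci were highest, 4 loci were called. Tubb6 then moved from -1.46 to -1.03 and Tubg1/Tubg2 from -1.97 to -1.52, and both missed the threshold (adjusted p = 0.242 and 0.119). Tubb6 also lost its call without any of nuclear *miR-92b* samples 1, 2 and 3, whole cell *miR-92b* sample 1 or a whole cell control sample (adjusted p = 0.051 to 0.16), without a filter (adjusted p = 0.0687) and with FPKM (-1.10, adjusted p = 0.215), and Tubg1/Tubg2 without nuclear *miR-92b* sample 1 or 3 (adjusted p = 0.0575 and 0.0703). The log2 difference of Tuba1c went from -2.83 to -2.05, that of Tubb2b from -2.53 to -1.83 and that of Tuba1a/Tuba1b from -2.06 to -1.51 without whole cell sample 3, and all 3 stayed called. Without whole cell *miR-92b* sample 2, Tuba1c had a difference of -3.48 and Tubb2b of -3.19.

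In Scr samples 3 of 8 loci were called lower in nuclear samples, Tuba1a/Tuba1b, Tuba1c and Tubb5, against 3.7% of all tested loci (5.17% called either way). The compartments overlapped for Tubb2a and Tubg1/Tubg2 and for no other tubulin locus, and 11.6% of all tested loci had every nuclear sample below every whole cell sample. Tubb5 was 3.25 times lower (95% interval 1.97 to 5.37, adjusted p = 0.00589), a call lost with log2(FPKM + 0.1) (-1.57, adjusted p = 0.0724). Nuclear Scr samples 2 and 3 carried a summed cytoplasmic count above that of every other nuclear sample, together with the highest nuclear Tubb5, Tuba1c and Tubb2b values, and the part of that in the smaller Scr difference was not tested. Without the 3 samples that stood apart, the log2 difference of Tubb5 with Scr moved from -1.70 to -2.61 and Tubb2b moved from -1.65 to -2.65 and was called (adjusted p = 0.0129), which left 1 nuclear Scr sample that is assumed to vary like the other groups. Tubb2b was also called with Scr without whole cell *miR-92b* sample 2 (adjusted p = 0.0481) or 3 (0.0264), which entered only the estimate of the spread.

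**Figure D2:**
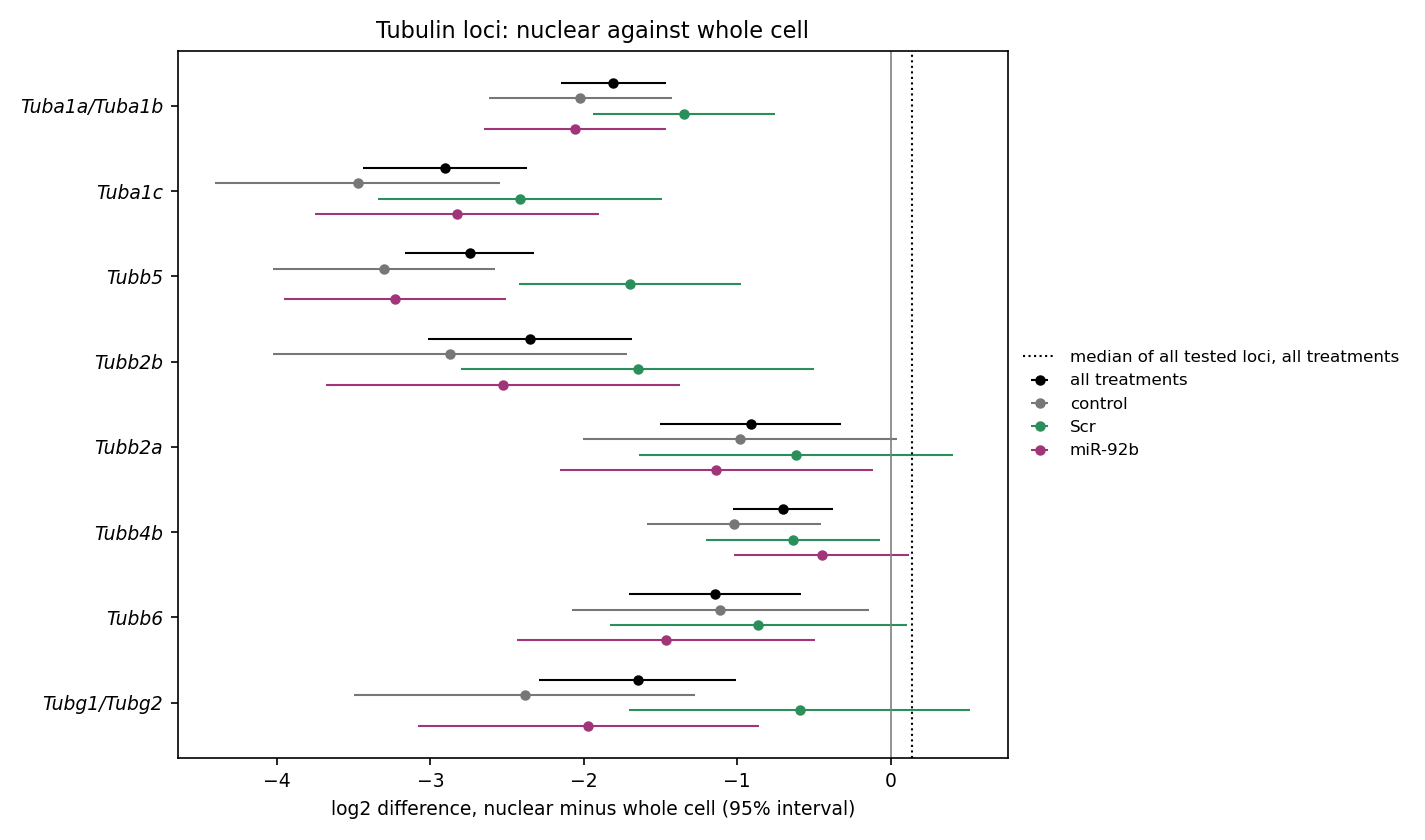
Difference in log2(normalized count + 1), nuclear minus whole cell, of the 8 tubulin loci on the vertical axis, with the 95% interval of limma's model, over all treatments (black) and within control (grey), Scr (green) and miR-92b (purple). All 32 estimates lie below 0, from -3.47 to -0.45, and the dotted line marks the median of all tested loci, 0.14.

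The size of the compartment difference was compared between treatments because the 3 treatments gave unlike values for Tubb5. No tubulin locus was called in any of the 3 comparisons of this kind, in which at most 0.00642% of all tested loci were called. Tubb5, singled out after its values were seen, had the smallest unadjusted p of the tubulin loci in the 2 comparisons with Scr. Its compartment difference with *miR-92b* was lower than that with Scr by -1.53 on the log2 scale (95% interval -2.55 to -0.51, unadjusted p = 0.0051, adjusted p = 0.683). That with Scr was higher than that in control samples by 1.60 (95% interval 0.58 to 2.63, unadjusted p = 0.00354, adjusted p = 0.886). Without the 3 samples that stood apart, these values of Tubb5 were -0.09 and 0.69. Between Scr and control samples, Tubg1/Tubg2 had a larger shift than Tubb5, 1.79 (95% interval 0.22 to 3.36). Its unadjusted p was 0.027 and its adjusted p was 0.886. The compartment difference of Tubg1/Tubg2 was -0.59 with Scr and -2.39 in control samples. Without the 3 samples that stood apart it was -1.09 with Scr and again -2.39 in control samples. Without nuclear control sample 3, where the locus held 14 reads, it was -1.77 in control samples. The 2 comparisons with Scr share the Scr samples and are not independent.

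**Figure D3:**
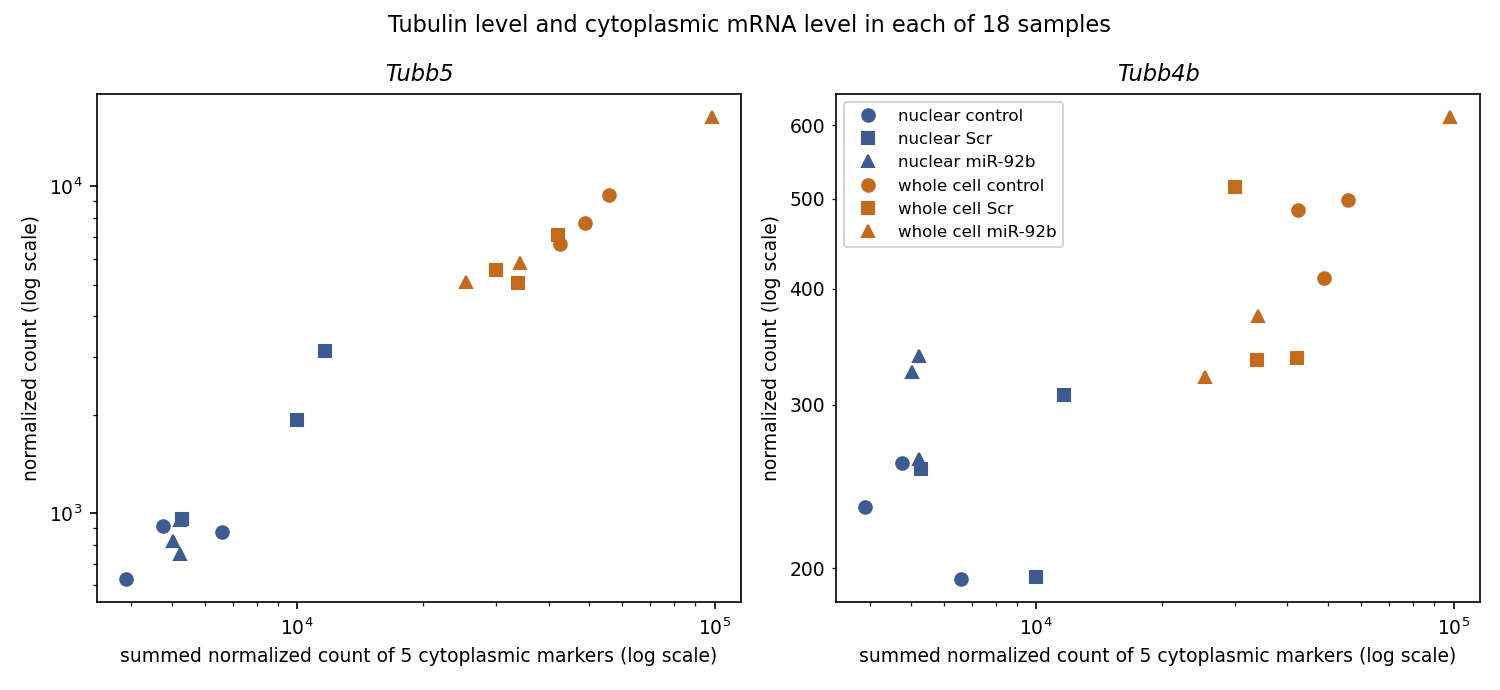
Normalized count of Tubb5 (left) and Tubb4b (right) against the summed normalized count of 5 cytoplasmic mRNAs in each of the 18 samples, all axes logarithmic (blue nuclear, orange whole cell; circles control, squares Scr, triangles miR-92b). Tubb5 is high where the cytoplasmic sum is high, up to 16347 at a sum of 98333, and nuclear Scr samples 2 and 3 lie between the other nuclear samples and the whole cell samples, while Tubb4b spans only 195 to 613.

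Whether the pulldown with *miR-92b* held tubulin mRNA beyond the pulldown with Scr was asked in each compartment. No tubulin locus was called in nuclear samples, where none of the tested loci was called (0.0%) and 687 had an unadjusted p below the threshold in limma. The log2 differences, *miR-92b* minus Scr, ran from -1.10 for Tubb5 to 0.30 for Tubb4b, with a median of -0.30 over the 8 loci and 0.11 over all tested loci. That of Tubb5 had a 95% interval of -1.82 to -0.38 (unadjusted p = 0.00449, adjusted p = 0.99996), and each nuclear *miR-92b* sample was below each nuclear Scr sample. This held for 1 of 8 tubulin loci and 3.81% of all tested loci, and the opposite order for 0 of 8 and 6.28%. Without nuclear Scr sample 1 the difference of Tubb5 was -1.55 and called (adjusted p = 0.0495), and without the 3 samples that stood apart it was -0.19. Tubb5 in nuclear Scr against nuclear control samples moved in the same way. The difference was 1.18 in all samples, 1.63 and called without nuclear Scr sample 1 (adjusted p = 0.0309) and 0.27 without the 3 samples. Both comparisons rest on the same Scr samples.

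In whole cell samples no tubulin locus was called between *miR-92b* and Scr, where 0.00642% of all tested loci were called and 1515 had an unadjusted p below the threshold. The log2 differences ran from -0.10 for Tubb2b to 0.64 for Tubg1/Tubg2, with a median of 0.37, against -0.01 over all tested loci. Every *miR-92b* sample was below every Scr sample for 0 of 8 tubulin loci (4.6% of all tested loci), and above for 0 of 8 (4.32%). Of the 8 differences 7 were above 0, and 5 of these turned below 0 without whole cell *miR-92b* sample 3. Tubb5 then went from 0.43 to -0.10, Tuba1a/Tuba1b from 0.38 to -0.17, Tuba1c from 0.15 to -0.62, Tubb4b from 0.12 to -0.16 and Tubb6 from 0.35 to -0.08. The 95% interval of the Tubb5 difference in all samples, -0.29 to 1.15, left room for changes in either direction. Against control, no tubulin locus was called with *miR-92b* or with Scr in either compartment, where between 0.0% and 0.00642% of all tested loci were called, and these comparisons share the control samples.

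Isotype levels were compared per transcript length, as FPKM. In nuclear samples Tuba1a/Tuba1b was the highest tubulin locus with a median of 88.1 FPKM (lowest 70.04, highest 142), above Tubb5 in 8 of 9 samples. Tubb5 followed with a median of 42.3 FPKM (30.7 to 186) and Tubb4b with 16.9 FPKM (8.80 to 19.8), and Tubb5 lay above Tubb4b in 9 of 9 samples. The other 5 loci lay close together, between medians of 7.40 FPKM for Tubg1/Tubg2 and 3.69 FPKM for Tubb2b, and ordering of neighbours among them held in 5 to 8 of 9 samples, so Tubg1/Tubg2 and Tubb6, and Tubb2a and Tuba1c, did not differ beyond their spread. By normalized count per annotated transcript length, Tubb2a was instead the fourth nuclear locus, above Tubg1/Tubg2 in 7 of 9 samples.

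In whole cell samples Tuba1a/Tuba1b (median 341 FPKM, 218 to 846) and Tubb5 (median 333 FPKM, 242 to 851) had similar medians. Within samples, however, Tuba1a/Tuba1b lay above Tubb5 in only 2 of 9. Tuba1c came next with a median of 42.8 FPKM, above Tubb4b (32.0 FPKM) in 7 of 9 samples. Tuba1c was thus the third locus in whole cell samples and the seventh in nuclear samples. Tubb2b (21.2 FPKM), Tubg1/Tubg2 (20.997 FPKM), Tubb6 (15.9 FPKM) and Tubb2a (14.6 FPKM) followed, and Tubb6 lay above Tubb2a in only 4 of 9 samples. With the normalized count divided by annotated transcript length in place of FPKM, Tubb5 was above Tuba1a/Tuba1b in 8 of 9 whole cell samples.

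The make-up of the beta isotypes differed between compartments. Tubb5 gave 59.9% ± 11.4 (SD, n = 9) of the summed beta FPKM in nuclear samples and 80.0% ± 2.59 (SD, n = 9) in whole cell samples. By group its nuclear share was 54.1% ± 4.71 in control, 72.1% ± 12.5 in Scr and 53.6% ± 1.31 in *miR-92b* samples (SD, n = 3), and its whole cell share was 80.3% ± 0.524, 77.8% ± 0.738 and 81.8% ± 3.72. The highest nuclear share, 82.1%, was in Scr sample 3 and lay within the whole cell range of 77.0% to 84.8%. Without the 3 samples that stood apart, the Tubb5 share was 54.4% ± 3.26 in nuclear (SD, n = 7) and 79.6% ± 2.51 in whole cell samples (SD, n = 8), with no overlap.

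Tubb4b gave 18.8% ± 8.21 of the summed beta FPKM in nuclear samples and 7.10% ± 1.52 in whole cell samples (SD, n = 9). Its nuclear share was steady in *miR-92b* samples at 24.9% ± 0.926 and spread in Scr samples, 12.9% ± 10.8 (SD, n = 3), with 5.86% to 25.4% between samples. With those samples left out it was 22.2% ± 5.22 in nuclear (SD, n = 7) and 7.42% ± 1.26 in whole cell samples (SD, n = 8). Tubb6 gave 9.41% ± 5.13 against 3.54% ± 1.20, Tubb2a 7.28% ± 3.48 against 3.52% ± 0.821 and Tubb2b 4.63% ± 0.757 against 5.88% ± 1.89, nuclear against whole cell. The ratio of the normalized count of Tubb5 to that of Tubb4b was 2.53 to 10.2 in nuclear samples (median 3.51) and 10.8 to 26.7 in whole cell samples (median 15.8), with no overlap. Of the alpha FPKM, Tuba1c gave 5.43% ± 2.14 in nuclear and 10.9% ± 2.06 in whole cell samples (SD, n = 9). Shares within a sample do not depend on scaling between samples, and no test was run on them. They do depend on the measure. By normalized count per annotated transcript length, mean nuclear shares were 52.9% for Tubb5, 22.5% for Tubb4b, 12.2% for Tubb2a and 7.31% for Tubb6. Tubb2a was thus above Tubb6 in nuclear samples, the reverse of the order in FPKM. The whole cell shares were then 77.9%, 7.86%, 4.63% and 3.55%.

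**Figure D4:**
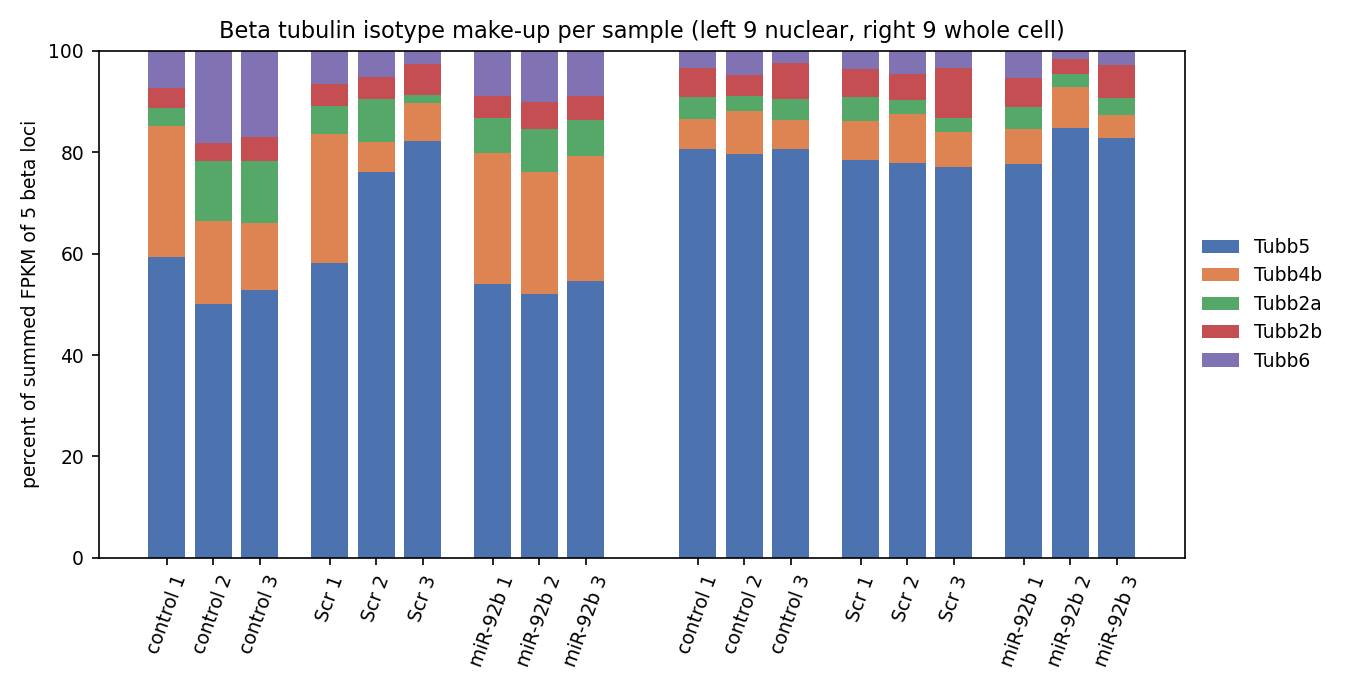
Percent of the summed FPKM of 5 beta-tubulin loci in each sample, 1 bar per sample, with 9 nuclear samples on the left and 9 whole cell samples on the right, in the order control, Scr, miR-92b. Tubb5 (blue) takes 77.0% to 84.8% of every whole cell bar and 50.2% to 59.3% of every nuclear bar except Scr samples 2 and 3, and Tubb4b (orange) is larger in 7 of the nuclear bars than in the whole cell bars.

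The loci most like the leading alpha and beta loci across samples were also lower in nuclear samples, by log2 differences of -1.89 (Tagln2) to -2.90 (Eef2). By Pearson's r of log2(normalized count + 1) over the 18 samples, among 14376 loci of 1 gene, Tuba1a/Tuba1b was most like Eif2s3x (0.993), Vim (0.989), Tagln2 (0.987), Gapdh (0.987) and Rpl34 (0.986). Tubb5 was most like the elongation factor gene Eef2 (0.992), Rpl14 (0.991), Ccni (0.990), Rpl7 (0.990) and Cfl1 (0.989). These 18 points share their libraries and fall into 2 compartments, which alone gives high values of r. Loci picked by such an r over both compartments share the direction by the way they were picked. Among the tubulin loci, r between Tubb5 and Tubb2b was 0.937 within the 9 nuclear samples and 0.839 within the 9 whole cell samples, while r between Tubb5 and Tubb4b was 0.05 and 0.718. Without the 3 samples that stood apart, r between Tubb5 and Tubb2b was 0.650 within 7 nuclear and 0.812 within 8 whole cell samples, and r between Tubb5 and Tubb4b was 0.262 and 0.477.

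Other genes around the tubulin pathway are given by their counts per list in the comparison of compartments over all treatments, to be read against the 15.8% of all tested loci called lower in nuclear samples and the 31.0% called either way. Of 10 further tubulin genes, 4 lay in tested loci. Tube1, the centriolar epsilon-tubulin, was 1.61 times higher in nuclear samples (355.6 to 597 against 228 to 419 normalized counts, adjusted p = 0.000806), but no locus of this list was called higher with FPKM. Tuba4a was lower (log2 difference -1.85, adjusted p = 0.0321) at 0 to 47.7 normalized counts in nuclear samples, Tubg2 is part of the joined gamma locus, and Tuba8 had a difference of -0.64 (adjusted p = 0.616). Without the 3 samples that stood apart, 1 of these 4 loci was called lower and 1 higher, and the count of lower calls was also 1 without nuclear control sample 2 or 3, nuclear *miR-92b* sample 2, whole cell control sample 2, whole cell Scr sample 1 or 3, or whole cell *miR-92b* sample 3.

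Of 22 loci of tubulin folding (the CCT chaperonin, prefoldin and the tubulin cofactors), 10 were called lower in nuclear samples, 2 higher and 10 neither, with a median log2 difference of -0.58. The chaperonin genes Cct2 (-1.45, adjusted p = 1.65e-08) and Cct7 (-1.36, adjusted p = 3.47e-07) were lower. The cofactor gene Tbce (0.64, adjusted p = 0.0071) and the prefoldin gene Pfdn1 (2.01, adjusted p = 0.0264) were higher, but no locus of this list was called higher without the 3 samples, where 11 were called lower, and 1 was called higher without whole cell control sample 1 or whole cell Scr sample 2. Ttc5, the factor of tubulin mRNA autoregulation, had 44.9 to 111 normalized counts in nuclear and 39.5 to 170 in whole cell samples (-0.16, adjusted p = 0.728). Neither of the 2 loci of that list, Ttc5 and Scaper, was called. In 4 other fits 1 locus of the list was called higher. These were rescaling to the same median, quantile normalization, and leaving out nuclear Scr sample 3 or whole cell Scr sample 2.

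Of 11 loci of the gamma-tubulin ring complex and its anchors, 3 were called higher and 2 lower in nuclear samples. Higher calls were 1 with FPKM and 5 after rescaling to the same median. The centrosomal scaffold genes Akap9 (0.80, adjusted p = 1.32e-05) and Cdk5rap2, joined with Gm11226 (0.42, adjusted p = 0.00205), were higher. The small subunit genes Mzt2 (-3.31, adjusted p = 0.00188) and Mzt1 (-0.56, adjusted p = 0.00368) were lower, Mzt2 at only 0 to 23.7 normalized counts in nuclear samples. Of 21 loci of microtubule-associated proteins, 3 were called higher, among them Map1a (0.54, adjusted p = 0.00728) and Map6, joined with Gm45591 (0.53, adjusted p = 0.00138), and 3 lower, among them Tppp3 (-1.58, adjusted p = 2.37e-06) and Mapre2 (-0.84, adjusted p = 0.000686), with 5 called higher without whole cell Scr sample 2 or whole cell *miR-92b* sample 2. Higher calls in this list were 1 with FPKM and 5 after rescaling to the same median, and its 6 calls of 21 are close to the share over all loci.

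Of 11 loci of stathmins and microtubule destabilisers, 5 were called lower and 2 higher. Stmn3 (-1.83, adjusted p = 2.33e-06) and Stmn1, joined with Gm23634 (-0.93, adjusted p = 2.37e-05), were lower, while Stmn4 (0.88, adjusted p = 0.0168) and the severing enzyme gene Fign (0.79, adjusted p = 2.07e-05) were higher, with 1 higher call left with FPKM. Of 17 loci of tubulin-modifying enzymes, 5 were called lower and none higher, among them Ttll12 (-0.66, adjusted p = 0.00471) and Ttll3, joined with Arpc4 (-0.55, adjusted p = 0.00238), and 2 were called lower without the 3 samples, 3 after rescaling to the same median and 3 without nuclear *miR-92b* sample 3 or whole cell control sample 1. In this list 1 locus was called higher without whole cell *miR-92b* sample 1 or 2. For reference, 5 of 5 cytoplasmic mRNAs were called lower in nuclear samples, with a median difference of -2.90, and 3 of 4 tested nuclear RNAs were called higher, with a median of 1.07. The differences of all 8 tubulin loci lay below those of the nuclear RNAs, with Tubb5, Tuba1c and Tubb2b within the cytoplasmic range of -3.67 (Rplp0) to -2.15 (Actb).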

How the data were processed

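RNA-seq of nuclear and whole cell Neuro2A samples was analysed in 6 groups of 3, assigned from the sample titles. Per the labels, the authors made directional poly(A) libraries and processed reads with bcl2fastq 2.17, Trimmomatic 0.30, TopHat2 and Cufflinks on GRCm38 (mm10). No source used here gives versions of TopHat2 and Cufflinks. As deposited, normalized counts (unit signal) are reads on a locus after division by the library's size factor. FPKM, also deposited, takes account of transcript length and mapped reads. The authors' comparison tables hold fold changes, p-values and q-values and were not used.

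Each of the 635205 nonzero values came out as a whole number of reads (100% within tolerance). The tolerance was 0.02 reads and grew with the value at loci of many reads, where the check says little. Whole read counts were so recovered from the deposited values for edgeR, DESeq2 and depth. The 115957 loci without a symbol (4.51% to 15.3% of reads) were left out. Loci averaging 10 normalized counts or more were tested, 15579 in all, of which 1197 join several symbols. The design had named a count test for raw counts, and since the values are normalized, limma 3.58.1 (R 4.3.3) was used, on log2(normalized count + 1) with trended variance, 1 model of 6 groups, two-sided, Benjamini-Hochberg adjustment over all tested loci and a threshold of 0.05. The log2 scale with a pseudocount of 1 understates changes of low loci. A value written as times lower is 2 raised to the log2 difference with its sign reversed, and its 95% interval was converted in the same way. Alternatives were pseudocounts of 0.5 and 8, a minimum mean of 1 or 50 or no filter, log2(FPKM + 0.1), rescaling to the same median, quantile normalization, the compared groups alone, the replicate number as a block, DESeq2 1.42.0, edgeR 4.0.16, each of the 18 samples left out, and, chosen after seeing the data, 3 samples left out together. Counts per annotated transcript length replaced FPKM for isotype levels.

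Members, gene lists and tests were chosen with earlier results of these data known. Named by rule were every tubulin locus, the 5 loci most like the leading alpha and beta locus, and up to 2 loci per list and direction with the smallest adjusted p. Sequence sharing and seed matches were computed on GENCODE M21 transcripts. The fits were tested on simulated data.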

Additional observations from a re-analysis of the deposited data

How the results depend on the processing

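The 8 tubulin loci were called lower in nuclear samples over all treatments under all 13 alternatives and with each of the 18 samples left out, and no difference between compartments changed sign. The log2 difference of Tubb5 over all treatments stayed between -2.88 and -2.57 when a sample was left out, and that of Tubb4b between -0.77 and -0.61. With FPKM the difference of Tubb2a went from -0.91 to -1.44 and that of Tubb4b from -0.70 to -1.07, while the median of all loci went from 0.14 to 0.02. With FPKM, 1389 loci were called higher and 2515 lower in nuclear samples over all treatments, against 2377 and 2454 in normalized counts. In control samples the split moved from 458 and 1077 to 113 and 1027 with FPKM and to 773 and 891 after rescaling to the same median, which moved the median of all loci from 0.06 to 0.18. In *miR-92b* samples it moved from 1038 and 1033 to 349 and 1064 with FPKM, and in Scr samples from 228 and 577 to 569 and 719 with DESeq2. The count of loci called in control samples was 3108 and in *miR-92b* samples 597 with the compared groups alone, and in Scr samples it was 399 without a filter and 1288 with DESeq2, against 1535, 2071 and 805. With a sample left out it ranged from 850 (without nuclear control sample 3) to 2435 (without whole cell *miR-92b* sample 3) in control, from 386 (without whole cell Scr sample 3) to 1744 (without whole cell *miR-92b* sample 3) in Scr and from 975 (without whole cell *miR-92b* sample 3) to 2914 (without whole cell *miR-92b* sample 1) in *miR-92b* samples.

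Of the calls within treatments, the *miR-92b* count fell from 6 to 3 with the compared groups alone, a fit of fewer samples. In Scr samples it fell from 3 to 2 with FPKM. Leaving out each sample gave 4 to 6 calls in control, 3 to 4 in Scr and 4 to 6 in *miR-92b* samples. Whether the replicate numbers pair the samples is not known. Of 45 pairs of samples with the same number, 1 had deviations correlated above 0.1 (-0.04 to 0.11). For 9 of 18 samples, the most correlated sample of another group had the same number. Low correlations over all loci cannot settle whether samples were paired. With the replicate number as a block the counts were 8 over all treatments, 6 in control, 4 in Scr and 6 in *miR-92b* samples. The added call in Scr samples was Tubb2b (adjusted p = 0.0233 in limma with this block).

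No tubulin locus was called between *miR-92b* and Scr except nuclear Tubb5 without nuclear Scr sample 1, and several differences changed sign. In nuclear samples Tubb6 turned to 0.0493 with FPKM. In whole cell samples Tubb6 turned to -0.0574 with FPKM, and Tubb2b to 0.16 with DESeq2 and 0.12 with edgeR. With the 3 samples that stood apart left out, the nuclear values turned to 0.14 for Tuba1c, 0.0168 for Tubb2b, 0.41 for Tubb2a and 0.10 for Tubb6, and the whole cell values to -0.17 for Tuba1a/Tuba1b, -0.62 for Tuba1c, -0.10 for Tubb5, -0.16 for Tubb4b and -0.0770 for Tubb6. With each sample left out, nuclear calls ranged from 0 to 1 for *miR-92b* against Scr and for Scr against control, nuclear Tubb2a from -0.43 to 0.43 and nuclear Tuba1c from -0.46 to 0.0037. Whole cell Tuba1a/Tuba1b ranged from -0.17 to 0.72, Tuba1c from -0.62 to 0.81, Tubb5 from -0.10 to 0.74, Tubb2b from -0.80 to 0.56, Tubb4b from -0.16 to 0.32 and Tubb6 from -0.0770 to 0.90. The cause was not tested beyond these fits. Depth limits the loci with few reads, chiefly Tuba1c, Tubb2b, Tubb6 and Tubg1/Tubg2 in nuclear samples, with medians of 61 to 73 reads.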
